A study of Mus musculus with 6 samples.

Results

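Glycolytic enzymes are described here in the gastrocnemius, the large calf muscle, of Ogg1Tg and Control mice. The 10 genes Pfkm, Aldoa, Tpi1, Gapdh, Pgk1, Pgam2, Eno3, Pkm, Ldha and Ldhb were taken by symbol, and all 10 were found once among 35491 named entries. RNA of the gastrocnemius came from 3 Ogg1Tg and 3 Control mice, all male, 20 weeks old, of C57BL/6J background, fed chow and given no treatment. Ogg1Tg mice carry human OGG1-1a, a DNA repair enzyme for oxidised guanine, joined to a mitochondrial targeting signal and driven by a CMV/AG promoter. No muscle-specific promoter is named. Control mice were C57BL/6J mice without a stated transgene. The labels mention neither litters nor how many founders gave the line. The stated aim of the study was the role of OGG1 placed in mitochondria, and the comparison here asks whether transcripts of the route from glucose to lactate differ between the genotypes.

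Glycolysis turns a glucose molecule into pyruvate in the cytosol and yields ATP without oxygen. Pyruvate is then either reduced to lactate by lactate dehydrogenase or taken up by mitochondria. Fast-twitch fibres, which dominate the mouse gastrocnemius, depend on the pathway for short bursts of work and use muscle forms of several of its enzymes. Slow-twitch fibres rely more on oxidation and make more of the B subunit of lactate dehydrogenase, which is also the main subunit of heart.

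None of the 10 enzymes passed the test between Ogg1Tg and Control muscle. Each had a lower mean level in the Ogg1Tg group, and 9 of them were lowest in the same mouse, Ogg1Tg replicate 3. The 9 varied together from mouse to mouse, while Ldhb followed a pattern of its own. Among 8 lists of neighbouring genes, Pck2 and Myc rose and no other gene passed.

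Values are scaled reads, which are gene counts divided by 1 factor per library. Reads in named genes numbered 45189860 to 56126407 per library, and the smallest count behind any value of the 10 enzymes was 2165 reads. Markers of skeletal muscle (Ckm, Acta1, Myh4, Des, Myog and Tnnt3) were present in every library and together took 7.50%, 9.65% and 7.33% of the signal in Ogg1Tg replicates 1, 2 and 3 and 9.84%, 8.50% and 7.78% in Control replicates 1, 2 and 3. Mouse Ogg1 averaged 190 ± 13.1 scaled reads in Ogg1Tg and 191 ± 35.7 in Control muscle (SD, n = 3 each), which does not measure the human transgene. Ogg1Tg replicate 3 stood apart, with Spearman correlations across genes of 0.9457 to 0.9535 with the other 5 libraries, each lower than any among those 5, where the highest was 0.983. Of 14 lymphocyte and neutrophil markers, 13 were tested, none passed and Ly6g was at 0 in all libraries. Their summed signal was 0.000440%, 0.000341% and 0.0331% in Ogg1Tg replicates 1, 2 and 3 and 0.000326% to 0.000516% in Control muscle. Ptprc, the highest of them, measured 154, 135 and 6300 in the Ogg1Tg and 187, 173 and 243 in the Control replicates. All 8 adipocyte markers were detected and none passed, with a summed signal of 0.00700%, 0.00581% and 0.0284% in Ogg1Tg replicates 1, 2 and 3 and 0.00674% to 0.00759% in Control muscle. In bulk muscle, fewer cells of a type and less RNA per cell cannot be told apart. The 9 macrophage markers, none called, summed to 0.00526%, 0.00400% and 0.0152% in the Ogg1Tg and 0.00520% to 0.00793% in the Control replicates. The erythroid list had 6 of its 7 markers tested and none called, and all 6 lay below 0. Of these, 3 were apart and lower in Ogg1Tg muscle, against 11.3% of all genes. Their median log2 fold change was -0.82, and -0.67 without Ogg1Tg replicate 3. Whether these other cell types had a part in the enzyme levels was not tested.

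Across 23312 genes tested with limma on log2(value + 1), 127 passed an adjusted p of 0.05, which is 0.545% of genes. Fold changes below are Ogg1Tg minus Control on that log2 scale, with 95% intervals from the same model.

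Pfkm is the muscle subunit of phosphofructokinase, the main control point of the pathway, and lies in mm10 on chromosome 15, at 98092589 to 98132451. It measured 88840, 106891 and 56089 scaled reads in Ogg1Tg replicates 1, 2 and 3, against 123007, 102457 and 97959 in Control replicates 1, 2 and 3. Ogg1Tg replicates 1 and 3 lay below all Control mice, and replicate 2 lay within their range. Its log2 fold change was -0.40 ± 0.30 (SE), with an interval from -1.08 to 0.27.

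Aldoa encodes aldolase A, which splits the sugar into a pair of triose phosphates, and lies on chromosome 7 from 126795234 to 126800751. It was the most abundant of the 10, with 378882, 479237 and 250825 scaled reads in Ogg1Tg replicates 1, 2 and 3 and 529785, 433691 and 407805 in the Control replicates. The groups overlapped through Ogg1Tg replicate 2, and the log2 fold change was -0.35 ± 0.46 (SE, interval -1.39 to 0.70). Tpi1, the isomerase that interconverts the triose phosphates, measured 25098, 33775 and 16492 in the Ogg1Tg and 38982, 29746 and 26389 in the Control replicates 1, 2 and 3. It ordered the 6 mice as Aldoa did, and its log2 fold change was -0.38 ± 0.27 (SE). Tpi1 lies on chromosome 6 from 124810586 to 124814296.

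Gapdh oxidises glyceraldehyde 3-phosphate and makes NADH, and is often used as a reference gene. It measured 109755, 122333 and 70815 scaled reads in Ogg1Tg replicates 1, 2 and 3, against 148073, 115253 and 105285 in Control replicates 1, 2 and 3. Its highest value was 2.09 times its lowest over the 6 mice, and its log2 fold change was -0.31 ± 0.30 (SE, interval -0.99 to 0.38). Pgk1, phosphoglycerate kinase, makes ATP at the next step. It measured 22603, 24408 and 16046 in the Ogg1Tg and 24926, 22410 and 20677 in the Control replicates. Pgk1 was the steadiest of the 10 between mice, with a ratio of highest to lowest of 1.55, and its log2 fold change was -0.13 ± 0.19 (SE, interval -0.57 to 0.31). Gapdh lies on chromosome 6 from 125161715 to 125166467 and Pgk1 on chromosome X from 106187100 to 106203699. Both genes have processed copies elsewhere in the genome, and the handling of reads that match several places is not stated, so their counts are uncertain to that extent.

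Pgam2 is the muscle form of phosphoglycerate mutase, on chromosome 11 from 5801640 to 5803733. It measured 33267, 44102 and 21477 scaled reads in Ogg1Tg replicates 1, 2 and 3, against 48997, 45449 and 37045 in the Control replicates. It had the largest log2 fold change of the 10, -0.46 ± 0.27 (SE, interval -1.08 to 0.15), with Ogg1Tg replicate 2 inside the Control range. Eno3, the muscle enolase, lies on the same chromosome from 70657202 to 70662513. It measured 144967, 194057 and 97719 in the Ogg1Tg and 201732, 158840 and 139700 in the Control replicates 1, 2 and 3. Here 2 of the 3 Ogg1Tg mice lay within the Control range, and the log2 fold change was -0.23 ± 0.35 (SE, interval -1.02 to 0.55).

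Pkm encodes pyruvate kinase M, the last ATP-making step, on chromosome 9 from 59656368 to 59679375. It measured 85441, 111599 and 54630 scaled reads in Ogg1Tg replicates 1, 2 and 3, against 127549, 104275 and 99780 in Control replicates 1, 2 and 3. Ogg1Tg replicates 1 and 3 were below all Control mice. The log2 fold change was -0.45 ± 0.31 (SE, interval -1.15 to 0.25). The counts are per gene, so the M1 and M2 splice forms of Pkm were not separated.

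**Figure D1:**
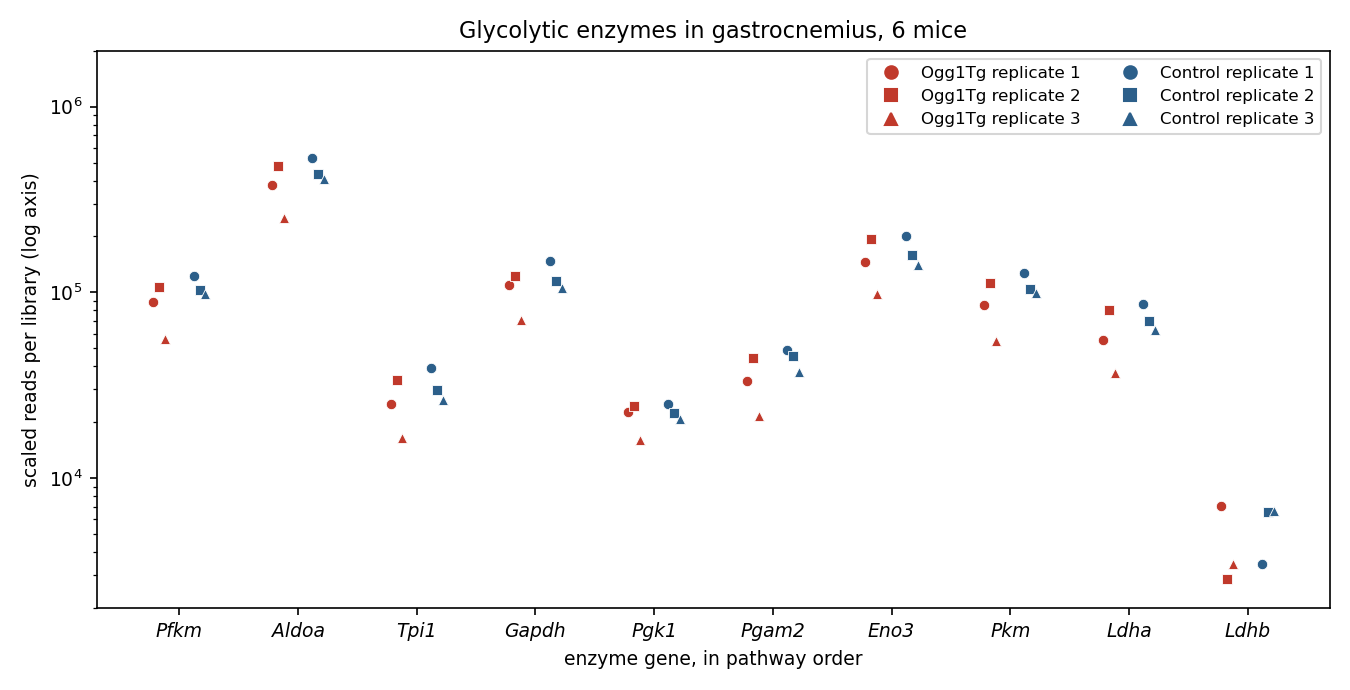
Scaled reads (log axis) of the 10 glycolytic enzymes in pathway order, with 3 Ogg1Tg mice in red left of 3 Control mice in blue for each gene and a marker shape per replicate. Ogg1Tg replicate 3 is the lowest library for 9 genes, Control replicate 1 is the highest for the same number, and Ldhb sits far below the rest with another order of mice.

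Lactate dehydrogenase is a tetramer of A and B subunits. Ldha, the muscle subunit, measured 55645, 80554 and 36564 scaled reads in Ogg1Tg replicates 1, 2 and 3, against 86165, 70103 and 62498 in Control replicates 1, 2 and 3. Its log2 fold change was -0.40 ± 0.31 (SE, interval -1.10 to 0.29), and it ordered the mice as Aldoa and Tpi1 did. Ldhb, the heart subunit, measured 7032, 2864 and 3435 in the Ogg1Tg and 3424, 6578 and 6628 in the Control replicates. Ogg1Tg replicates 2 and 3 and Control replicate 1 were low, and the other 3 mice lay between 6578 and 7032, so the split ran through both genotypes. The log2 fold change of Ldhb was -0.37 ± 0.36 (SE, interval -1.18 to 0.44), and it ran from -0.76 without Ogg1Tg replicate 1 to -0.11 without Ogg1Tg replicate 2. It was -0.69 without Control replicate 1. Ldha lies on chromosome 7 from 46841475 to 46855627 and Ldhb on chromosome 6 from 142490249 to 142507957.

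Ldhb made up 11.2%, 3.43% and 8.59% of Ldha plus Ldhb in Ogg1Tg replicates 1, 2 and 3, and 3.82%, 8.58% and 9.59% in Control replicates 1, 2 and 3. The means were 7.75% ± 3.96 in Ogg1Tg and 7.33% ± 3.08 in Control muscle (SD, n = 3 each), and the groups overlapped throughout. The lowest shares were in Ogg1Tg replicate 2 and Control replicate 1. Those are the mice with the largest share of Myh4, the myosin of the fastest fibres, among Myh1, Myh2, Myh4 and Myh7, at 90.0% in Ogg1Tg replicate 2 and 89.5% in Control replicate 1, against 76.3% to 83.2% in the other 4 mice.

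Promoters of the genes are shown because Ldha and Ldhb ran differently over the mice, and because Pgam2 and Eno3 are muscle forms that ran with Ldha. Each sequence is the stretch of 250 bases before a RefSeq start on GRCm38.p6, read 5′ to 3′ on the gene's strand. Capitals mark the E-box CANNTG, bound by basic helix-loop-helix factors, and the hypoxia response core ACGTG, bound by HIF factors, on either strand. The motifs overlap where CACGTG holds both. The windows are chr7:46845554-46845803 (plus) for Ldha, the first of its 2 windows, chr6:142507958-142508207 (minus) for Ldhb, chr11:5803797-5804046 (minus) for Pgam2 and chr11:70656926-70657175 (plus) for Eno3.
Ldha: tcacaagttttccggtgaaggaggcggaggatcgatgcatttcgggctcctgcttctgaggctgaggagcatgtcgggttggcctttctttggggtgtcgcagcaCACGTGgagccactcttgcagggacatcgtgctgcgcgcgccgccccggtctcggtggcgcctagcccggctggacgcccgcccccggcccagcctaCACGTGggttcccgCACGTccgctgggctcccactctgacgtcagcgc
Ldhb: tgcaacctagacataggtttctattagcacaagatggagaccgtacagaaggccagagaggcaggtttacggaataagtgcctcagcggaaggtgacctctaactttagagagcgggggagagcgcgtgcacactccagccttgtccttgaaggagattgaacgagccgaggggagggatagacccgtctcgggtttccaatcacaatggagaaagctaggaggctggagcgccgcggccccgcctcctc
Pgam2: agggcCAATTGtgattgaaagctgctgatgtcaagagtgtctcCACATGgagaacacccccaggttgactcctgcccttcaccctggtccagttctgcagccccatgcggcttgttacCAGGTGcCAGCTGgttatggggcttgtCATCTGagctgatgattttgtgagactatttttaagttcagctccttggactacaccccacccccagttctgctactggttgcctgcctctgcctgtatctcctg
Eno3: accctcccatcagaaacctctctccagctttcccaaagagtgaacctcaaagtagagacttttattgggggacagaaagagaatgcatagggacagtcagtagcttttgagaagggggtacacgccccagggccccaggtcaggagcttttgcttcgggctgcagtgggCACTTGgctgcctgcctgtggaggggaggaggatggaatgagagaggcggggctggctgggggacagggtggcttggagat

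The Ldha window held 5 matches to ACGTG, of which CACGTG, being its own reverse complement, gives a match on each strand. The Ldhb window held no match to ACGTG and none to CANNTG, and the same was true of the Gapdh window. The other Ldha window held no match to ACGTG and 2 to CANNTG. All 10 enzymes had RefSeq windows, 17 in all, since some genes have several starts. A match to ACGTG was found in 7 of the 17 windows, in Aldoa, Ldha, Pfkm, Pgk1 and Pkm, and in 16.6% of 32851 windows of all genes. The Aldoa windows with a match overlap and hold the same site, which was therefore counted more than once. CANNTG was found in 13 of 17 windows, from 8 enzymes, and in 66.2% of all windows. Pgam2 had 5 matches to CANNTG and the only match among the enzymes to the MEF2 motif, which 2.92% of all windows hold. The GC box GGGCGG was found in 6 of 17 windows and in 32.7% of all windows. The overlapping Aldoa windows also share a CANNTG site and GC boxes, which were likewise counted more than once. No enzyme window held TATAAA (12.4% of all windows) or TCAGGTT, the MEF3 motif (3.49%). Both strands were searched for each motif, and a match does not show binding.

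By limma, 0 of the 10 enzymes were called against 0.545% of all genes, 0 were at an unadjusted p under 0.05 against 11.0% of all genes, and their adjusted p ran from 0.579 for Pgam2 to 0.834 for Pgk1. On recovered reads edgeR called 0 of the 10, against 0.532% of all genes, with adjusted p from 0.590 to 0.946. DESeq2 called 0 of the 10, against 2.66% of all genes, with adjusted p from 0.560 to 0.938. All 10 log2 fold changes were below 0 (8 of 10 with quantile normalization), as were those of 52.8% of all genes, and their median was -0.37 against -0.02 over all genes. The genotypes did not separate for any of the 10, while 11.3% of all genes lay lower, and 7.03% higher, in every Ogg1Tg mouse than in any Control mouse. The intervals are wide: the lowest bound, for Aldoa, was -1.39 and the highest, also for Aldoa, was 0.70.

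The lower levels were most marked in 1 library. Ogg1Tg replicate 3 was the lowest of the 6 for 9 enzymes, all but Ldhb, and its median difference from the Control mean was -0.89. In Ogg1Tg replicates 1 and 2 that median was -0.27 and 0.05, against 0.22, -0.06 and -0.18 in Control replicates 1, 2 and 3. The summed scaled reads of all named genes were also lowest in Ogg1Tg replicate 3, at 4.55e+07. They were 6.23e+07 to 7.22e+07 in the other libraries. Over all genes tested, the median difference from the Control mean in Ogg1Tg replicate 3 was -0.02. How far the low total accounts for the enzyme levels was not tested. Ogg1Tg replicate 1 lay below all Control mice for 6 enzymes, and Ogg1Tg replicate 2 lay within the Control range for 9. Without Ogg1Tg replicate 3 the median log2 fold change was -0.11, Pgk1 and Eno3 had positive values of 0.06 and 0.03, and 0 of the 10 passed, against 1.86% of all genes in that fit. Leaving out that library narrowed the interval of Pgk1 to -0.19 to 0.30 and that of Aldoa to -0.56 to 0.38.

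**Figure D2:**
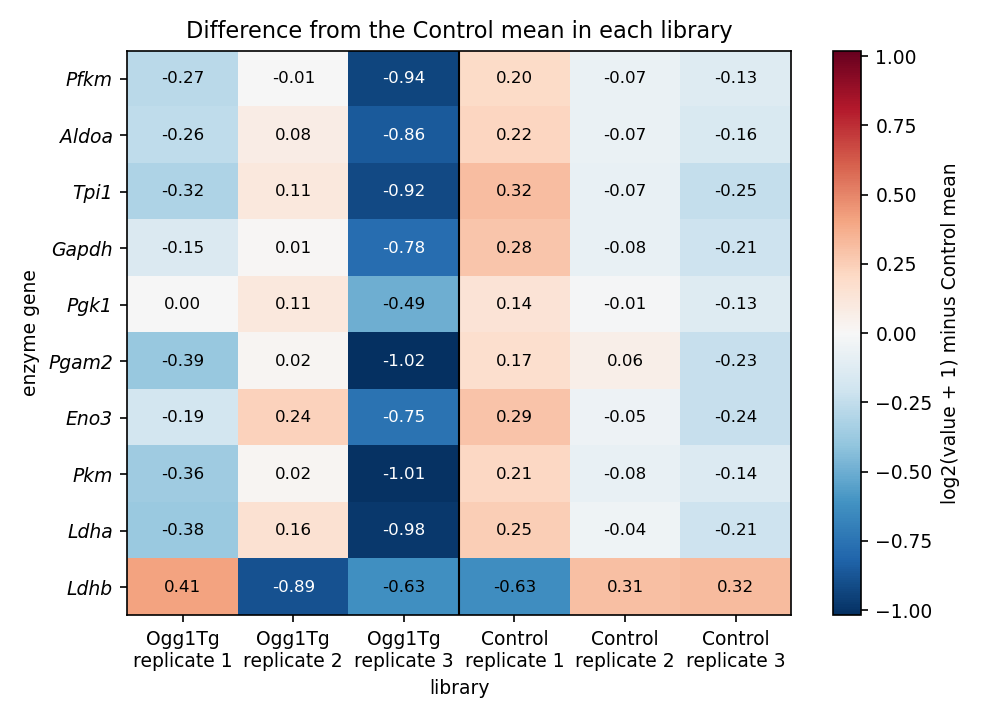
Log2(value + 1) minus the Control mean of each enzyme (rows) in each library (columns, Ogg1Tg left and Control right), with red above and blue below the Control mean. The column of Ogg1Tg replicate 3 runs from -1.02 to -0.49, and the Ldhb row has its own pattern.

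**Figure D3:**
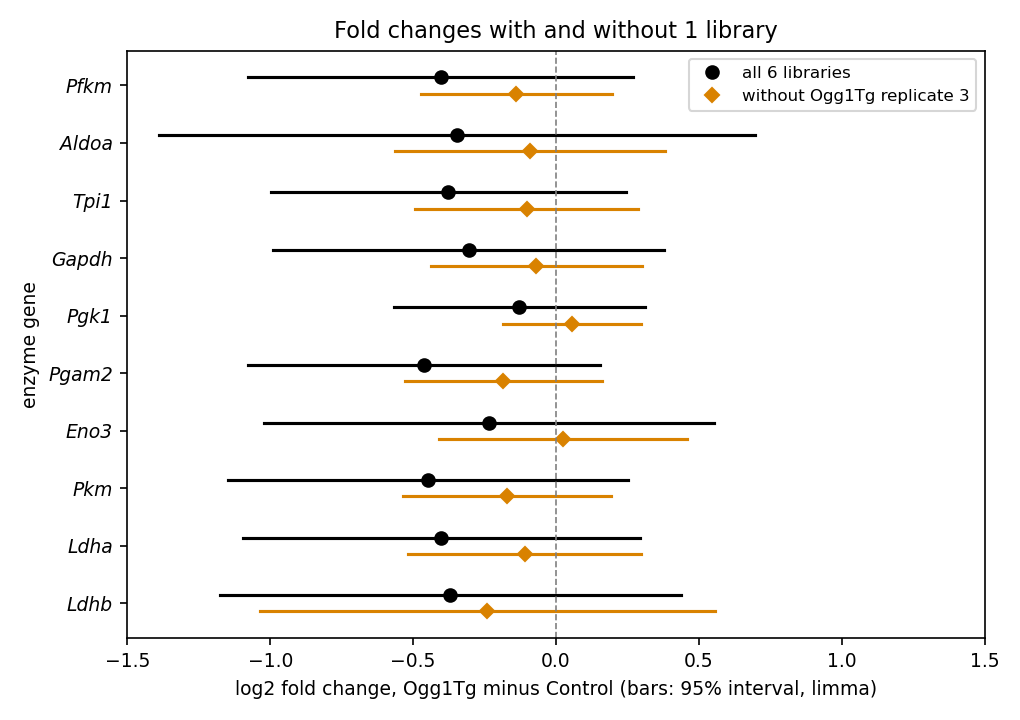
Log2 fold change, Ogg1Tg minus Control, of each enzyme with its 95% limma interval, from all 6 libraries (black) and without Ogg1Tg replicate 3 (orange). Every interval spans 0, and each point lies nearer 0 without that library.

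Fast-twitch genes were low together with the enzymes in that mouse. The slow-twitch median there was above the Control mean, yet lower than in the other Ogg1Tg mice. In Ogg1Tg replicate 3 the median difference from the Control mean was -0.87 over 14 genes of fast-twitch fibres and -0.69 over the 6 skeletal muscle markers, which share Myh4 and Tnnt3 with that list. Over 12 slow-twitch genes it was 0.46, with 8 of 12 above the Control mean. The slow-twitch median was 0.77 and 0.91 in Ogg1Tg replicates 1 and 2, and -0.72, 0.25 and 0.50 in Control replicates 1, 2 and 3. In Ogg1Tg replicates 1 and 2 the fast-twitch median was -0.27 and 0.13, against 0.26, -0.04 and -0.19 in Control replicates 1, 2 and 3, which is nearly the run of values given above for the enzymes. Over the 6 libraries none of the 14 fast-twitch genes passed limma, edgeR or DESeq2, and 0 were at an unadjusted p under 0.05. Their median log2 fold change was -0.39, against -0.13 without Ogg1Tg replicate 3 and 0.02 with quantile normalization. Myh4 measured 3253771, 4983846 and 2402914 in Ogg1Tg replicates 1, 2 and 3 and 5498760, 4183360 and 3674266 in the Control replicates. Atp2a1, the calcium pump of fast fibres, measured 971207, 1193789 and 677190 in the Ogg1Tg and 1171424, 1031590 and 980505 in the Control replicates 1, 2 and 3.

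As a share of all signal in named genes, which needs no factor between libraries, the groups were closer. The 10 enzymes took 1.53%, 1.76% and 1.37% of the signal in Ogg1Tg replicates 1, 2 and 3, and 1.85%, 1.61% and 1.52% in Control replicates 1, 2 and 3. The means were 1.55% ± 0.193 in Ogg1Tg and 1.66% ± 0.168 in Control muscle (SD, n = 3 each), a difference within the spread of either group. With 1 library left out the difference of -0.107 percentage points ran from -0.209 without Ogg1Tg replicate 2 to -0.013 without Control replicate 1, and was -0.017 without Ogg1Tg replicate 3. Aldoa alone took 0.620% ± 0.0756 in Ogg1Tg and 0.664% ± 0.0613 in Control muscle.

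Per length, the steps of the pathway were far from equal. Divided by the length of the longest protein-coding transcript, the mean level of Aldoa was 238636 ± 73909 scaled reads per kb in Ogg1Tg and 295089 ± 41491 in Control muscle (SD, n = 3 each). Eno3 followed with 93082 ± 30800 in Ogg1Tg and 106622 ± 20310 in Control muscle, and Gapdh with 71104 ± 18915 and 86528 ± 15766, in the same order of groups. Pgam2 came next at 39224 ± 13471 in Ogg1Tg and 52179 ± 7308 in Control muscle. Pkm, Ldha and Pfkm lay between 29156 and 34494 in Ogg1Tg and between 37446 and 45450 in Control muscle. The SDs between mice overlapped for Eno3 and Gapdh and for neighbours from Pgam2 to Pfkm. Within every library, however, Eno3 lay above Gapdh, Pgam2 above Pkm and Pkm above Ldha. Ldha and Pfkm changed order between libraries. Tpi1 had 15633 ± 5378 in Ogg1Tg and 19730 ± 4058 in Control muscle, and Pgk1 11517 ± 2411 and 12422 ± 1171. Ldhb was lowest, at 3408 ± 1733 in Ogg1Tg and 4251 ± 1408 in Control muscle.

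Aldoa held a steady share of the set, while other enzymes did not. Aldoa took 39.8%, 39.9% and 40.2% of the summed signal of the 10 in Ogg1Tg replicates 1, 2 and 3, and 39.8%, 39.8% and 40.6% in the Control replicates, although its own level varied 2.11-fold. Ldhb varied most, at 0.739%, 0.239% and 0.550% in the Ogg1Tg and 0.257%, 0.604% and 0.660% in the Control replicates. Pgk1 took 2.38%, 2.03% and 2.57% in the Ogg1Tg and 1.87%, 2.06% and 2.06% in the Control replicates. Both overlapped between genotypes. The genotypes overlapped in this share for 7 of the 10 and did not for 3. Eno3 took 15.2%, 16.2% and 15.7% in the Ogg1Tg and 15.1%, 14.6% and 13.9% in the Control replicates 1, 2 and 3. Pkm took 8.98%, 9.30% and 8.75% in the Ogg1Tg and 9.57%, 9.58% and 9.94% in the Control replicates. Pgam2 took 3.50%, 3.68% and 3.44% in the Ogg1Tg and 3.68%, 4.17% and 3.69% in the Control replicates, so its gap was under 0.1 of a percentage point. Of all 23312 genes, 12.6% had values that did not overlap when divided by the same sum. The 10 shares add up to a fixed total and are not independent, so these 3 are given as values without a test.

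**Figure D4:**
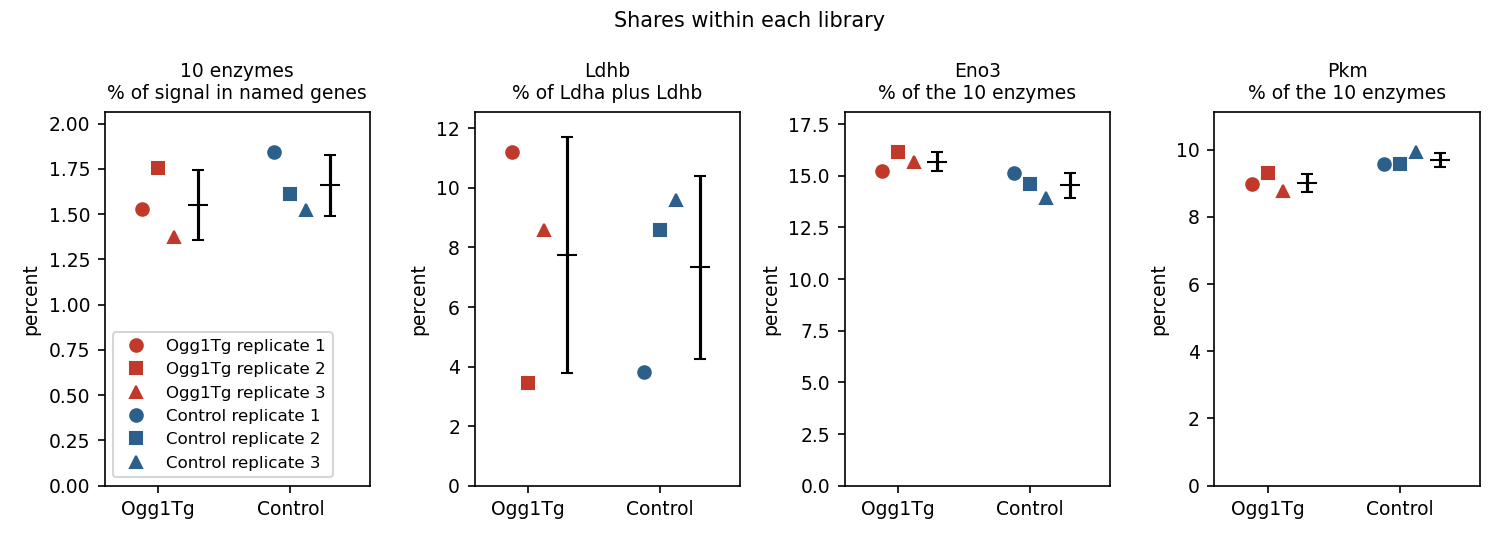
Shares in percent within each library: the 10 enzymes of all signal in named genes, Ldhb of Ldha plus Ldhb, and Eno3 and Pkm of the 10 enzymes, with Ogg1Tg left of Control and the mean ± SD (n = 3) beside the points. The genotypes overlap in the left pair of panels, while Eno3 lies slightly higher and Pkm slightly lower in the 3 Ogg1Tg mice.

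Over the 6 libraries, log2 levels of the 9 enzymes other than Ldhb had pairwise Pearson correlations from 0.928 to 0.997, and from 0.642 to 0.995 over the 5 libraries without Ogg1Tg replicate 3. Ldhb correlated with the 9 at -0.20 to 0.06 over 6 libraries, and at -0.94 to -0.66 over those 5. These are descriptions over few points that share each library's scaling factor. The genes closest to the mean of the 10 were Tnnt3, Eri3, Pxn, Rwdd1 and Cystm1, with r of 1.00, 0.999, 0.999, 0.998 and 0.998 over 6 libraries. Of 11312 genes with a mean of at least 100 that were compared, 15.1% had r above 0.9, so a high value is common here. Tnnt3, fast troponin T, measured 395843, 458803 and 239993 in Ogg1Tg replicates 1, 2 and 3 and 525134, 466950 and 413224 in the Control replicates.

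Ldhb ran with other genes. Myh2, the myosin of fast oxidative fibres, was chosen after its values were seen and had r of 0.972 with Ldhb over 6 libraries and 0.985 without Ogg1Tg replicate 3. The share of all genes with so high an r with Ldhb is not given here. Myh1 and Got1, also chosen after their values were seen, had r of 0.882 and 0.826 with Ldhb over 6 libraries. Mdh1 had 0.894 and Myh4 had -0.242. Myh2 measured 407436, 200042 and 206847 in Ogg1Tg replicates 1, 2 and 3, against 264820, 399513 and 414859 in Control replicates 1, 2 and 3. Mybpc1, slow myosin-binding protein C, had r of 0.856 with Ldhb and measured 73169, 42207 and 27046 in the Ogg1Tg and 48250, 78044 and 82719 in the Control replicates. Myh7, the slow myosin, had r of 0.050 with Ldhb and measured 57593, 79545 and 50855 in the Ogg1Tg and 10585, 35642 and 35632 in the Control replicates. Thus Ogg1Tg replicate 2 had the highest Myh7 and the lowest Ldhb. Of the 12 slow-twitch genes none passed limma, 6 were at an unadjusted p under 0.05 (11.0% of all genes were), DESeq2 called 3 (2.66% of all genes) and edgeR 0 (0.532%). Their median log2 fold change was 0.69, and 0.80 without Ogg1Tg replicate 3. Of the 12, 5 lay higher in every Ogg1Tg mouse, against 7.03% of all genes.

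Forms of the enzymes used by other tissues made up little of the signal. Pfkm was 99.3%, 99.3% and 97.9% of the 3 phosphofructokinase genes in Ogg1Tg replicates 1, 2 and 3, and 99.1% to 99.4% in Control muscle. Pgam2 was 97.8%, 98.6% and 96.3% of Pgam1 plus Pgam2 in the Ogg1Tg and 98.0% to 98.5% in the Control replicates. Eno3 was 96.9%, 97.7% and 95.7% of the enolases in the Ogg1Tg and 97.5% to 97.8% in the Control replicates. The lowest muscle share was in Ogg1Tg replicate 3 for all 3 enzymes, the library with the high lymphocyte and adipocyte markers. The part of those cells in the shares was not tested. Eno1 and Eno1b are near-identical copies, and reads could be split between them.

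Of 17 genes for other forms of the enzymes, 14 passed the filter on low values and none was called by limma, with a median log2 fold change of 0.07, against -0.27 without Ogg1Tg replicate 3. At an unadjusted p under 0.05 there were 3 (11.0% of all genes), and DESeq2 called 2 (2.66% of all genes) and edgeR 0 (0.532%). Those with the highest means were Eno1, alpha enolase, at 3527 ± 124 in Ogg1Tg and 3161 ± 418 in Control muscle, and Bpgm, bisphosphoglycerate mutase, at 1997 ± 764 and 3025 ± 530 in the same order. Ldhd, a D-lactate dehydrogenase of mitochondria chosen after seeing its values, had no overlap, where 11.3% of all genes lay apart and lower. It measured 865, 640 and 598 in the Ogg1Tg and 967, 1193 and 1227 in the Control replicates (limma adjusted p = 0.180, and 0.0466 to 0.629 over the alternatives).

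Of 3 genes at the entry of the pathway none passed limma, edgeR or DESeq2 and 0 were at an unadjusted p under 0.05, with a median log2 fold change of -0.22, against 0.07 with quantile normalization. Hk2, the main hexokinase of muscle, measured 23343, 17752 and 11995 in Ogg1Tg replicates 1, 2 and 3 and 23428, 22964 and 25540 in the Control replicates (limma adjusted p = 0.487). Gpi1, which makes fructose 6-phosphate, averaged 33119 ± 8682 in Ogg1Tg and 37954 ± 5610 in Control muscle (SD, n = 3 each; limma adjusted p = 0.753).

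Enzymes that set the level of the phosphofructokinase activator fructose 2,6-bisphosphate were also not called, 0 of 5, and their median log2 fold change was -0.45, against -0.12 without Ogg1Tg replicate 3. At an unadjusted limma p under 0.05 there were 3 (11.0% of all genes), and DESeq2 called 1 (2.66% of all genes) and edgeR 0 (0.532%). Pfkfb3, an inducible form, measured 21967, 45886 and 15936 in Ogg1Tg replicates 1, 2 and 3 and 47405, 27110 and 32110 in the Control replicates. Tigar, a phosphatase that removes this activator, averaged 4909 ± 1418 in Ogg1Tg and 6768 ± 801 in Control muscle. Pfkfb1 and Pfkfb4, chosen after seeing their values, did not overlap between genotypes, where 11.3% of all genes lay apart and lower and 7.03% apart and higher. Pfkfb1 measured 2083, 1295 and 1060 in the Ogg1Tg and 2409, 2360 and 2868 in the Control replicates (limma adjusted p = 0.215). Pfkfb4 measured 3292, 3818 and 2907 in the Ogg1Tg and 2547, 1858 and 1740 in the Control replicates (limma adjusted p = 0.165, and 0.0299 without Ogg1Tg replicate 3, and 0.00583 with DESeq2 to 0.623 over the alternatives).

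For lactate transport and the NADH shuttles, 0 of 8 genes passed limma, edgeR or DESeq2, 1 was at an unadjusted p under 0.05 (11.0% of all genes), and the median log2 fold change was -0.23, against -0.06 without Ogg1Tg replicate 3. Gpd1, the cytosolic glycerol phosphate dehydrogenase, averaged 13437 ± 4831 in Ogg1Tg and 14655 ± 2343 in Control muscle. Mdh1, cytosolic malate dehydrogenase, measured 17194, 10316 and 8815 in Ogg1Tg replicates 1, 2 and 3 and 13295, 17927 and 17648 in the Control replicates. The lactate exporter Slc16a3, chosen after its values were seen, had no overlap, where 11.3% of all genes lay apart and lower. It measured 5237, 9264 and 2838 in the Ogg1Tg and 14169, 10068 and 9476 in the Control replicates (limma adjusted p = 0.321).

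Of 7 genes for gluconeogenesis, the reverse route, 1 was called higher (0.395% of all genes were), 0 lower and 6 were not called, and the median log2 fold change was 0.05, against -0.24 without Ogg1Tg replicate 3. Pck2, the mitochondrial phosphoenolpyruvate carboxykinase, measured 989, 538 and 808 in Ogg1Tg replicates 1, 2 and 3, against 172, 155 and 208 in Control replicates 1, 2 and 3. Every Ogg1Tg mouse was above every Control mouse, with a log2 fold change of 2.09 ± 0.24 (SE), a fold of 4.25 (limma adjusted p = 0.00654). The limma adjusted p was 0.0682 without Control replicate 1, 0.0710 without Control replicate 2 and 0.0959 with no variance trend, and over all 17 alternatives the lowest was 8.53e-13, with DESeq2. Pcx, pyruvate carboxylase, averaged 3557 ± 716 in Ogg1Tg and 3653 ± 457 in Control muscle, and G6pc3 1626 ± 285 and 1559 ± 98.9. Fbp2, the muscle fructose bisphosphatase, averaged 808 ± 582 and 1250 ± 283 in that order and was chosen after its values were seen.

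Of 13 regulators of glycolytic genes, 1 was called higher (0.395% of all genes were), 0 lower and 12 were not called. The median log2 fold change was -0.24, against -0.08 without Ogg1Tg replicate 3. At an unadjusted limma p under 0.05 there were 2 (11.0% of all genes), and DESeq2 called 2 (2.66% of all genes) and edgeR 1 (0.532%). Of the 13, 3 lay apart and lower in Ogg1Tg muscle (11.3% of all genes) and 1 apart and higher (7.03%). Myc, a transcription factor that can induce glycolytic genes, measured 833, 831 and 825 in Ogg1Tg replicates 1, 2 and 3, against 265, 263 and 214 in the Control replicates. The 3 Ogg1Tg mice were nearly equal and above every Control mouse, with a log2 fold change of 1.75 ± 0.15 (SE; limma adjusted p = 0.00104), and Myc was called in all 17 alternatives. Mef2c, a muscle transcription factor, measured 40886, 43661 and 28711 in Ogg1Tg replicates 1, 2 and 3 and 51747, 48596 and 50509 in the Control replicates (limma adjusted p = 0.493). Txnip, which restrains glucose uptake, averaged 19115 ± 2278 in Ogg1Tg and 18097 ± 2074 in Control muscle. Hif1a, the hypoxia factor that binds ACGTG, averaged 1562 ± 133 in Ogg1Tg and 1529 ± 70.0 in Control muscle and was chosen after its values were seen.

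**Figure D5:**
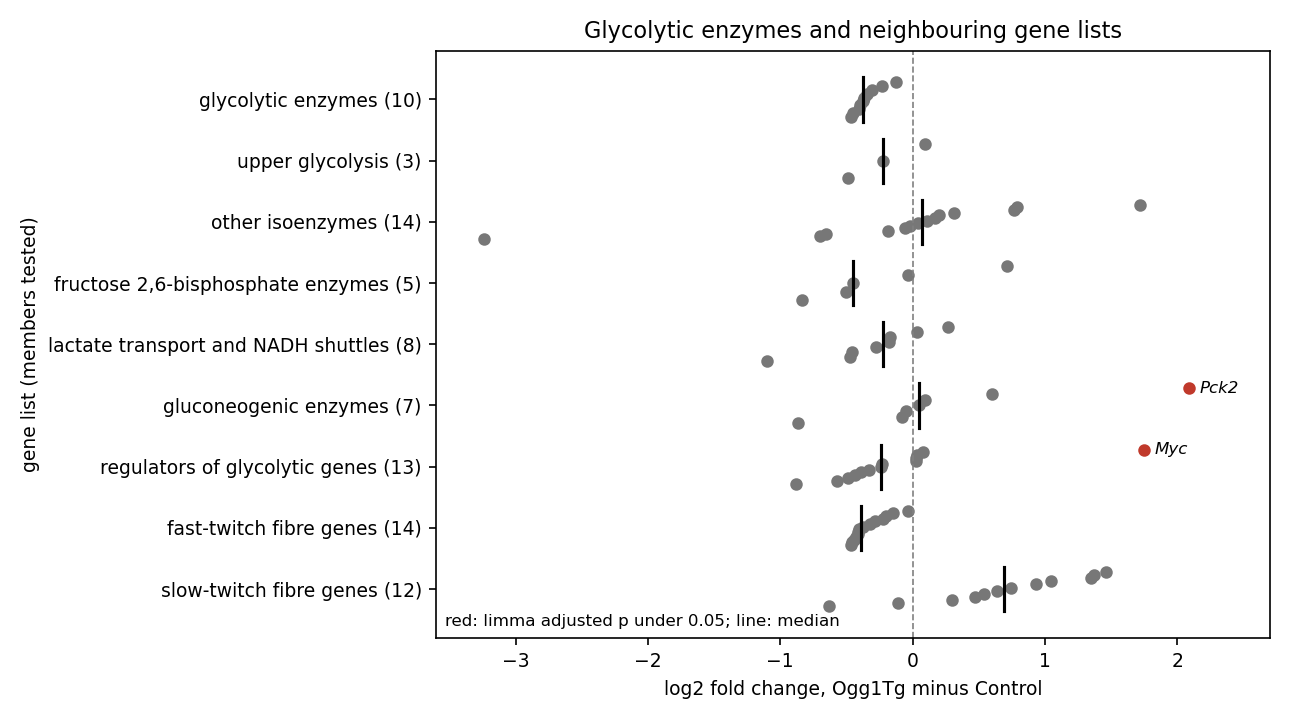
Log2 fold change, Ogg1Tg minus Control, of each tested gene of the glycolytic enzymes and 8 neighbouring lists, with the number tested in brackets, a black line at each median and genes called by limma in red. The 10 enzymes lie close together below 0, as the fast-twitch genes do, although with quantile normalization 8 of 10 and 6 of 14 do, and only Pck2 and Myc are called.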

How the data were processed

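Total RNA was made into libraries with a NuGen Ovation Universal kit, as the labels' protocols state. Trimmomatic, SAMtools, HTSeq and mm10 are named in the submitters' processing notes, and the sources used here give no aligner, annotation or strand setting. The file names say FPKM, yet each deposited signal value is a gene count that the authors divided by 1 factor per library, not by length. Values were whole multiples of 1 step per library, to a tolerance of 0.01 reads in 100% of cases. In Ogg1Tg replicate 3 the step, 1.01, is too near 1 to be distinctive. The written design assumed normalized values, and its test was kept.

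Of 37315 entries, 1824 without a gene name were not used; they held 2.38% to 3.54% of reads. The test was that of limma 3.58.1 (R 4.3.3) on log2(value + 1) of genes with a mean of at least 1. That scale understates folds of low genes. The fit used a variance trend, two-sided tests and Benjamini-Hochberg adjustment over all genes, with calls at adjusted p under 0.05. Tests on recovered reads used edgeR 4.0.16 and DESeq2 1.42.0. Counting error is small at this depth. The labels do not say whether the mice shared litters or handling days, so p-values measure the spread between these samples. No libraries were near-duplicates (lowest chi-square per gene 12.9).

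Coordinates and lengths came from GENCODE M21, which uses GRCm38 as mm10 does, and promoters from RefSeq on GRCm38.p6. Exons of Pfkm, Aldoa, Tpi1 and Gapdh share 18 to 68 bases with a gene on the other strand, and Pfkm shares 341 exon bases with Gm26513 and Pkm 767 with Gm49759 on the same strand. Those overlaps were not analysed here. The members and lists were chosen with earlier results of these data known. Genes named are the 10 enzymes, the called genes and 2 highest means of each list, the highest marker and those at 0, and the 5 genes most like the mean of the 10. Others are marked where they occur. Some results are not reported here.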

Additional observations from a re-analysis of the deposited data

How the results depend on the processing

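Alternatives were other pseudocounts (0.1 and 10), other filters (none, or a mean of 10), median-of-ratios, TMM and quantile scaling, no variance trend, a replicate block, edgeR, DESeq2, and leaving out each library. In these 17 fits none of the 10 enzymes was called (lowest adjusted p 0.287), and all 10 lay below 0 in 15. With quantile normalization Aldoa was at 0.056 and Pgk1 at 0.15; with 1 library left out Pgk1 ran from -0.25 to 0.055 and Eno3 from -0.47 to 0.025, both above 0 without Ogg1Tg replicate 3. In the fits with 1 library left out the other 8 stayed below 0. The 7 other than Ldhb were lowest there without Ogg1Tg replicate 2 and nearest 0 without Ogg1Tg replicate 3. The cause was not tested. The median of the 10 ran from -0.58 (without Ogg1Tg replicate 2) to -0.11 with 1 library left out and was -0.05 with quantile normalization. The difference in Ldhb share of Ldha plus Ldhb ran from -1.34 to 2.57 percentage points with 1 library left out, so its sign is not settled. The number of genes called, 127 (92 higher, 35 lower), was 46 (41 higher, 5 lower) with no variance trend, 619 (363 higher, 256 lower) with DESeq2, and 35 to 425 with 1 library left out. Same-numbered libraries did not deviate together (correlations -0.053, -0.0051 and 0.031), so no pairing by number was seen. With so few mice these values cannot exclude shared litters or handling days. With the replicate block 102 genes were called and none of the 10. Counts were deep, and the number of mice limits what could be detected.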
